A study of Homo sapiens with 3 samples.

Results

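The windows described here carry the labels of non-coding transcripts, mostly of protein-coding genes. They were the windows that the authors annotated as long non-coding RNA with the transcript type retained intron, processed transcript or nonsense-mediated decay. There were 62 of them in 59 genes, among 1533 windows in the table and 141 windows of the long non-coding RNA class. They comprised 18 retained intron, 36 processed transcript and 8 nonsense-mediated decay windows, and 1 further window with one of these types was not used here. The choice used the annotation and no measured value. The listed windows are those that the authors selected for tailed reads, although the summed counts of a few did not meet the stated filter.

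RNAs were recovered from HEK293T-Rex cells, a human embryonic kidney line that the labels give as HEK293, which overexpressed DIS3L2 D391N. DIS3L2 is an exoribonuclease that degrades RNA from the 3′ end and favours RNA carrying an untemplated tail of uridines. The D391N form is catalytically inactive and retains its RNA. It carried a Flag tag, was expressed from an inducible construct in a stable line, and was present beside whatever DIS3L2 the cells make themselves. Crosslinking and immunoprecipitation (CLIP) gave 3 replicate libraries in 1 group, with no control group. Each 50-nt window of the genome build hg19 had a count of uniquely mapped reads and a count of uridylated (U+) reads, which ended in at least 4 untemplated T. The counts had been summed over the 3 libraries, so the spread between replicates and the depth of each library are unknown. The U+ fraction is the U+ reads as a percentage of the unique reads, and the intervals given are 95% Wilson intervals. These cover counting error only, because PCR copies are not independent molecules.

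By way of background, 1 gene can give many transcripts besides its mRNA. A retained-intron transcript keeps a stretch that is spliced out of the mRNA and is often held in the nucleus or degraded. A transcript annotated for nonsense-mediated decay has a stop codon placed so that the cytoplasmic surveillance of translation is expected to remove it. A processed transcript is one for which the annotators found no open reading frame. Terminal uridylyltransferases add the U tail, which marks defective or surplus RNA in the cytoplasm for DIS3L2.

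The windows in short introns of 4 genes are shown first, because PPAN, with the most U+ reads, is one of these genes. Their listed transcripts are annotated as retained intron. Each line gives a whole intron in hg19, 5′ to 3′ on the strand of the gene, with the CLIP window in capitals.

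PPAN, chr19:10220923-10220999, plus strand, 77 nt: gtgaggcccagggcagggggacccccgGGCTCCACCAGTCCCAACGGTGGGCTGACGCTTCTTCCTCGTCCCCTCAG
THOC6, chr16:3076290-3076365, plus strand, 76 nt: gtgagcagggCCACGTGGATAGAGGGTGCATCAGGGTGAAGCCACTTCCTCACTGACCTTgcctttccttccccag
CIRBP, chr19:1271036-1271138, plus strand, 103 nt: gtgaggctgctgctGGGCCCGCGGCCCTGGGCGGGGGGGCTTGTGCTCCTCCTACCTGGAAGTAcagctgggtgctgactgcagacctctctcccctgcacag
CDCA5, chr11:64851196-64851404, minus strand, 209 nt: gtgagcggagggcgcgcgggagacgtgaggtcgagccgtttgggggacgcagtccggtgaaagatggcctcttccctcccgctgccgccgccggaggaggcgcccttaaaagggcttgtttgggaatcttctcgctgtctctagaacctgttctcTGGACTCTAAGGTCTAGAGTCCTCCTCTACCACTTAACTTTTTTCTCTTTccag

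The window alone is shown for 6 further genes that had many U+ reads or a U+ fraction near the top, of which ULK3 and FUZ also lie in short introns. Capitals mark the bases that are paired in the fold of lowest predicted free energy of the 50 nt taken alone.

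DMGDH, chr5:78531700-78531749, minus strand: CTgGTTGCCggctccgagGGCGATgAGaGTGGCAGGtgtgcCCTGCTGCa
ADARB1, chr21:46493750-46493799, plus strand: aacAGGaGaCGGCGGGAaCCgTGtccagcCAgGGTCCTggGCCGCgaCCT
FUZ, chr19:50315750-50315799, minus strand: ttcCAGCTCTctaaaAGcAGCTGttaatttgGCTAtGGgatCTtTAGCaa
ULK3, chr15:75132750-75132799, minus strand: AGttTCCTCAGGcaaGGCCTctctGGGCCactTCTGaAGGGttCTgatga
DCUN1D4, chr4:52711050-52711099, plus strand: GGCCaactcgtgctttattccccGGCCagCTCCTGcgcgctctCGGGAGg
COL6A4P1, chr3:15219500-15219549, minus strand: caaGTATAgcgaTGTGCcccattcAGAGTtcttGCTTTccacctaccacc

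In these windows 32 of 50 bases were paired for DMGDH and ADARB1, 30 for ULK3, 26 for FUZ, and 20 for DCUN1D4 and COL6A4P1. The highest U+ fractions of the 6 belonged to COL6A4P1 and DCUN1D4, which had the fewest paired bases. The 6 were picked partly by their fraction, and DCUN1D4 had only 29 unique reads (82.8 to 99.4%). No link between pairing and the fraction is therefore drawn from them. All 62 windows started at a multiple of 50, so their edges come from a fixed grid and do not mark the ends of the RNAs.

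Across the 62 windows the median U+ fraction was 71.4%, with quartiles of 54.6% and 81.3% and a range from 23.5% to 98.9%. Of 16132 unique reads, 11864 were U+, a pooled fraction of 73.5% (72.9 to 74.2%). The pooled value rested largely on PPAN, which held 43.0% of the U+ reads, and it was 62.2% without that window, while the median then was 70.7%. PPAN, PRKCA and ADARB1 together held 70.9% of the U+ reads. Most windows were shallow: over all 62 the median was 56.5 unique reads and 18 windows had at least 100, and without those 3 the median was 53.

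A U+ fraction of at least 50% was found in 52 of the 62 windows, beside 84.4% of all windows in the table. At least 75% was reached by 27 windows (43.5%), beside 39.1% of all windows, and at least 90% by 7 windows (11.3%), beside 9.78%. These shares were close to the background of the table, and the median of all 1533 windows was 70.2%. The whole interval lay above 50% for 40 windows, beside 67.3% of all windows in the table. It lay below 50% for 4 windows (CIRBP, MBD3, FOXP1 and HIST2H2BA), beside 9.07% of all windows.

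**Figure D1:**
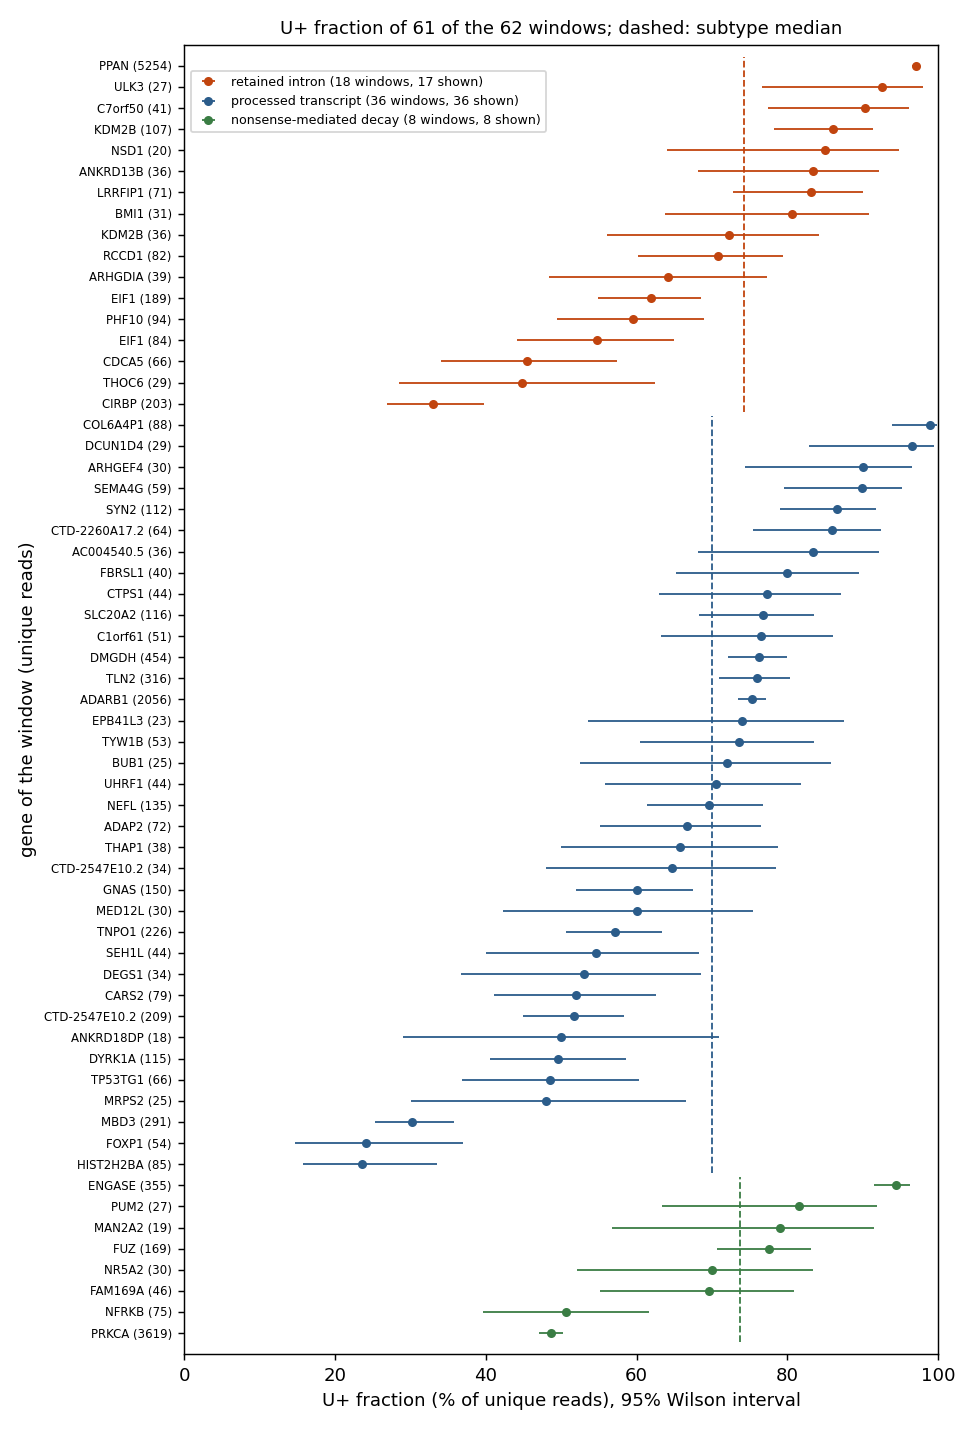
U+ fraction in percent (x axis) of 61 of the 62 windows, named by gene with the number of unique reads (y axis), in 3 colours for the transcript type. Points are fractions of the summed counts, bars are 95% Wilson intervals for counting error only, and dashed lines are the medians over all 62 of 74.3%, 70.0% and 73.8%; the windows of PPAN, ADARB1 and PRKCA have the narrowest intervals.

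Retained-intron windows had a median U+ fraction of 74.3% (quartiles 60.2% and 84.6%). Their pooled fraction of 90.8% (90 to 91.4%) was set largely by PPAN, and without it the pooled fraction was 63.0% and the median 72.2%. Of the 18 windows, 15 reached 50%, 9 reached 75% and 3 reached 90%.

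PPAN encodes a nucleolar protein of ribosome assembly. Its window, chr19:10220950-10220999, had 5099 U+ reads among 5254 unique reads, 97.0% (96.6 to 97.5%). This was the largest number of U+ reads in the whole set and the second highest fraction, after COL6A4P1. The window lay inside the 77-nt intron of the coding transcripts printed above and covered its last 50 nt, including the splice acceptor. The end of the listed retained-intron transcript was annotated 16.5 nt past the window midpoint, so that transcript stops within the window. The read-through gene PPAN-P2RY11 overlaps on the same strand, and reads from the 2 genes cannot be told apart.

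EIF1 encodes an initiation factor that helps the ribosome find the start codon. It had 2 adjoining windows, one with 117 of 189 reads U+, 61.9% (54.8 to 68.5%), and one with 46 of 84, 54.8% (44.1 to 65.0%). Their intervals overlapped. Both lay in an intron of 708 nt and in the first exon of the listed retained-intron transcript. Their midpoints were 737.5 and 687.5 nt past the start of that transcript. The nearest annotated start, that of another transcript of the gene, lay downstream, at distances of −280.5 and −330.5 nt.

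KDM2B, a histone demethylase of CpG islands, also had 2 adjoining windows. One had 92 of 107 reads U+, 86.0% (78.2 to 91.3%), and the other 26 of 36, 72.2% (56.0 to 84.2%), again with overlapping intervals. They lay in a coding intron of 41234 nt and in the first exon of the listed transcript, and adjoining windows can count the same read. The sequence of both pairs is printed below because a single stretch of 100 nt carried the signal in each gene, with the deeper window in capitals.

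EIF1, chr17:39845800-39845899, plus strand: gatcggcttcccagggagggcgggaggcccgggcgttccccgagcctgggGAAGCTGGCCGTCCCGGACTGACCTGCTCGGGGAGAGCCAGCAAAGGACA
KDM2B, chr12:121905050-121905149, minus strand: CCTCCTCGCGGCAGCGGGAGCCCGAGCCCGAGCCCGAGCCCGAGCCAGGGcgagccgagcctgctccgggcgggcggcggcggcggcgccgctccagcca

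The lowest retained-intron fractions among windows with at least 50 unique reads belonged to CIRBP and CDCA5. CIRBP, a cold-inducible RNA-binding protein, had 67 of 203 reads U+, 33.0% (26.9 to 39.7%). CDCA5, also called sororin, a factor that holds sister chromatids together, had 30 of 66, 45.5% (34.0 to 57.4%). THOC6, a part of the complex that couples transcription to mRNA export, was similar to CDCA5 with 13 of 29, 44.8% (28.4 to 62.5%). Their intervals did not overlap with that of PPAN.

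Processed-transcript windows had a median U+ fraction of 70.0% (quartiles 52.7% and 76.9%) and a pooled fraction of 68.5% (67.2 to 69.7%). Of the 36 windows, 30 reached 50%, 14 reached 75% and 3 reached 90%. The 3 windows with the most U+ reads had nearly equal fractions. ADARB1, an adenosine deaminase that edits double-stranded RNA, had 1549 of 2056 reads U+, 75.3% (73.4 to 77.2%). DMGDH, a mitochondrial enzyme of choline breakdown, had 346 of 454, 76.2% (72.1 to 79.9%). TLN2, a talin that links integrins to actin, had 240 of 316, 75.9% (70.9 to 80.3%), at chr15:62682750-62682799 in a 5′ UTR. All 3 intervals overlapped, and all 3 windows lay within 36.5 nt of an annotated start of their gene, in the first exon.

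The highest fractions among processed transcripts with at least 50 unique reads were those of COL6A4P1 and SEMA4G. COL6A4P1, a pseudogene of a collagen chain, had 87 of 88 reads U+, 98.9% (93.8 to 99.8%). SEMA4G, a semaphorin, had 53 of 59, 89.8% (79.5 to 95.3%), in a window at chr10:102729300-102729349 that spanned an exon-intron boundary. At the other end, HIST2H2BA, a histone H2B pseudogene, had 20 of 85, 23.5% (15.8 to 33.6%), and FOXP1, a forkhead transcription factor, had 13 of 54, 24.1% (14.6 to 36.9%). These 2 intervals overlapped each other and neither reached those of COL6A4P1 or SEMA4G. MBD3, a subunit of the NuRD chromatin complex, was the next lowest with 88 of 291 reads U+, 30.2% (25.2 to 35.7%).

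HIST2H2BA and FOXP1 also did not meet the authors' stated selection when it was applied to the summed counts. In that selection a posterior of at least 0.95 was required for a frequency of tailed reads above 0.25, as a product over the libraries. When the posterior was recomputed from the summed counts with a uniform prior, it was 0.409 for HIST2H2BA and 0.479 for FOXP1, and at least 0.95 for the other 60 windows, beside 96.8% of all windows in the table. MBD3 was just inside with 0.98. Another edge was the minimum of 20 reads, which NSD1 met exactly with 17 of 20 reads U+. ANKRD18DP with 9 of 18 and MAN2A2 with 15 of 19 were listed with fewer unique reads than that.

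Nonsense-mediated decay windows had a median U+ fraction of 73.8% (quartiles 64.8% and 79.6%) and, because of PRKCA, a pooled fraction of 54.2% (52.8 to 55.7%). Of the 8 windows, 7 reached 50%, 4 reached 75% and 1 reached 90%. PRKCA, a protein kinase C, had 1760 of 3619 reads U+, 48.6% (47.0 to 50.3%), at chr17:64298750-64298799 in its first exon and 5′ UTR. ENGASE, a cytosolic enzyme that removes N-glycans, had 335 of 355, 94.4% (91.5 to 96.3%), at chr17:77083300-77083349. Its window lay in exon 10 of 10 of the listed transcript, in an annotated 3′ UTR and 1952.5 nt past the nearest annotated start. FUZ, a planar polarity protein needed for cilia, had 131 of 169, 77.5% (70.6 to 83.2%), in an intron of its coding transcripts. NFRKB, a subunit of the INO80 chromatin remodeller, had 38 of 75, 50.7% (39.6 to 61.7%), at chr11:129765400-129765449. The intervals of PRKCA and NFRKB overlapped, and both lay below those of FUZ and ENGASE, which did not overlap with each other.

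Windows were also grouped by the role of the gene. The 14 windows of chromatin and transcription regulators had a median U+ fraction of 70.2%. Beyond those above, NSD1, a histone methyltransferase, was at 85.0%, the polycomb protein BMI1 at 80.6% and FBRSL1 at 80.0%. UHRF1, which recruits DNA methyltransferase, was at 70.5%, the nuclear receptor NR5A2 at 70.0%, THAP1 at 65.8%, the Mediator protein MED12L at 60.0% and PHF10 at 59.6%. The group thus spread widely, from 24.1% in FOXP1 to 86.0% in KDM2B.

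The 10 windows of RNA processing, translation and ribosome genes had a median of 58.3% and held both PPAN and CIRBP. PUM2, a repressor of mRNAs that binds their 3′ UTRs, was at 81.5% and TYW1B, a tRNA-modifying enzyme with a near-identical copy of the window elsewhere in the genome, at 73.6%. CARS2, the mitochondrial cysteinyl-tRNA synthetase, was at 51.9% and the mitochondrial ribosomal protein MRPS2 at 48.0%. Signalling genes had 7 windows with a median of 64.1%. ULK3, a kinase related to autophagy kinases, was at 92.6% and ARHGEF4, which activates small GTPases, at 90%. ADAP2 was at 66.7%, ARHGDIA at 64.1%, the G protein subunit GNAS at 60.0% and the kinase DYRK1A at 49.6%.

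The 6 windows of cytoskeletal, adhesion and neuronal genes had a median of 79.5%. All lay between 69.6% and 89.8%: the neurofilament NEFL at 69.6%, EPB41L3 at 73.9%, TLN2, LRRFIP1 at 83.1%, the synaptic vesicle protein SYN2 at 86.6% and SEMA4G. Metabolic and transport enzymes had 6 windows with a median of 77.0%. The phosphate transporter SLC20A2 was at 76.7%, the CTP synthase CTPS1 at 77.3%, the mannosidase MAN2A2 at 78.9% and the desaturase DEGS1 at 52.9%. Cell division and nuclear transport had 4 windows with a median of 55.8%. The spindle checkpoint kinase BUB1 was at 72.0%, the import receptor TNPO1 at 57.1% and the nucleoporin SEH1L at 54.5%. Among 7 windows of other or less described genes, with a median of 77.5% and including FUZ and the non-coding C1orf61, DCUN1D4 was at 96.6%, C7orf50 at 90.2%, ANKRD13B at 83.3%, RCCD1 at 70.7% and FAM169A at 69.6%. With 4 to 14 windows each and many under 50 reads, these groups were not tested against each other.

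The label of a coding locus held for most windows but not for all. In GENCODE release 44 mapped to hg19 the listed gene was protein-coding for 50 windows. It was a transcribed pseudogene for 5 windows and a long non-coding RNA gene for 4, and for 3 (NEFL, TYW1B and UHRF1) the gene identifier was not found. These 9 non-coding windows were all processed transcripts and had a median U+ fraction of 64.7% and a pooled fraction of 61.8%. The transcript type had also been revised: all 18 retained-intron and all 8 nonsense-mediated decay transcripts kept their type, whereas among the 36 processed transcripts 16 are now coding-gene transcripts with no defined coding sequence, 9 are long non-coding RNAs and 3 (GNAS, MBD3 and CTPS1) are protein-coding.

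Among the 9 non-coding windows, the pseudogene CTD-2547E10.2, now SMG1P3, held 2. One, chr16:21531700-21531749, had 108 of 209 reads U+, 51.7% (44.9 to 58.4%), and the other, chr16:21513450-21513499, had 22 of 34, 64.7% (47.9 to 78.5%). The first had 1 near-identical copy elsewhere in the genome and HIST2H2BA, at chr1:120906400-120906449 and now named H2BP1, had 2, so the source of their reads is uncertain. Outside these loci the same holds for TYW1B, which had 1 copy. The lncRNA genes CTD-2260A17.2, at chr5:96270800-96270849, and AC004540.5, now LINC02981, at chr7:26438250-26438299, had 55 of 64 reads U+, 85.9% (75.4 to 92.4%), and 30 of 36, 83.3% (68.1 to 92.1%). C1orf61, now MIR9-1HG, the host gene of a miR-9 precursor, had 39 of 51, 76.5% (63.2 to 86.0%), at chr1:156391450-156391499. TP53TG1, at chr7:86974750-86974799, had 32 of 66, 48.5% (36.8 to 60.3%), and ANKRD18DP, at chr3:197807550-197807599, had a fraction of 50% (29.0 to 71.0%). These loci covered nearly the full range of the set, with COL6A4P1 and HIST2H2BA at its ends.

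Most windows lay near an annotated start of a transcript of their gene. Of 59 windows whose gene was found, 39 (66.1%) had their midpoint within 150 nt of such a start, and 29 were within 50 nt. Starts of all transcripts of the gene counted, so some were internal to it. The FBRSL1 window was 41.5 nt from a start but began 12031 nt into an intron of a coding transcript. The share within 150 nt was 50% for retained introns (9 of 18), 75.8% for processed transcripts (25 of 33) and 62.5% for nonsense-mediated decay transcripts (5 of 8). It was 68.0% for lincRNA windows (17 of 25), 95.7% for antisense windows (45 of 47) and 85.8% for mRNA windows. The first exon of the listed transcript held 43 of 57 windows (75.4%), and 11 lay in a later exon. The median U+ fraction was 73.9% for the 39 windows near a start and 67.4% for the 20 farther away. Both subsets were broad, since the farther windows ran from HIST2H2BA at 23.5% to COL6A4P1 at 98.9% and held 4 of the 7 windows at or above 90%, namely COL6A4P1, PPAN, ENGASE and ULK3. PPAN, at 152.5 nt, was just outside the limit of 150 nt.

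**Figure D2:**
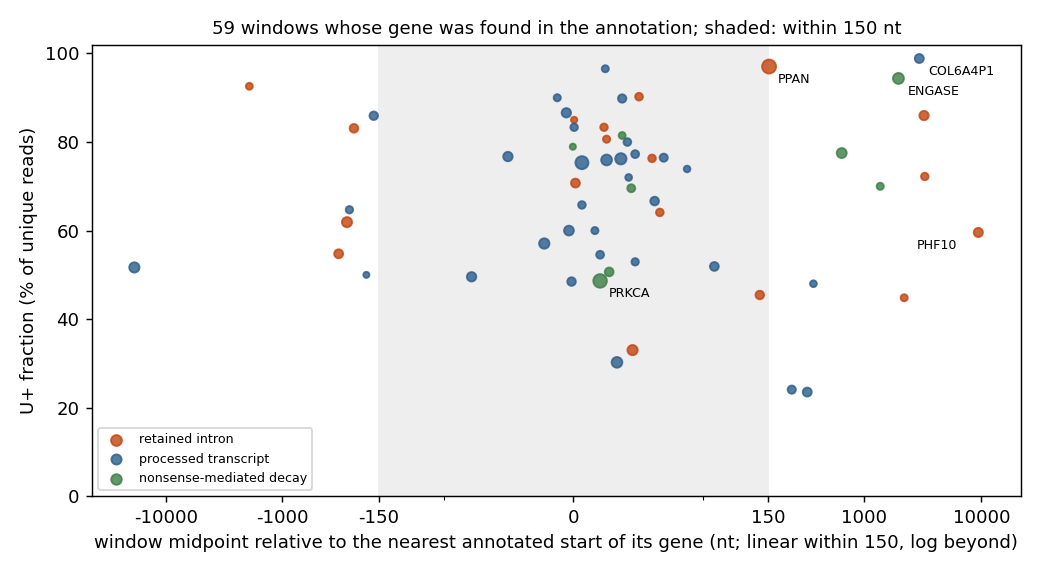
U+ fraction in percent (y axis) against the distance in nt of the window midpoint from the nearest annotated start of its gene (x axis, linear within 150 nt and logarithmic beyond), for 59 windows in 3 colours for the transcript type, with point size rising with read number. Starts are those of any transcript of the gene. The shaded band holds 39 windows within 150 nt, and PPAN, at 97.0%, lies at its right edge.

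Seen against the protein-coding transcripts of the same strand, 24 windows overlapped an exon, 24 lay in introns only and 14 met no coding transcript. Of the 24 exonic windows, 18 lay in a 5′ UTR, 2 in a 3′ UTR (ENGASE and PHF10) and 4 in coding sequence. Reads of these 24 windows, PRKCA, TLN2 and ENGASE among them, cannot be assigned to the listed transcript rather than to an mRNA. Reads of the 24 windows in introns likewise cannot be told apart from those of the unspliced precursor of the mRNA or of a spliced-out intron. The transcript type of all these windows is thus a label of the annotation and was not measured. Intronic windows made up 12 of the 18 retained-intron windows, 4 of the 8 nonsense-mediated decay windows and 8 of the 36 processed-transcript windows. In the authors' order of annotation mRNA came before long non-coding RNA, and these shares depend on the annotation release used.

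A coding intron shorter than 300 nt held the whole window in 6 cases, 5 windows labelled retained intron and FUZ. The limit of 300 nt was set after the positions had been seen. All 6 introns began with GT and ended with AG, the usual splice signals. In order of length they were THOC6 (76 nt), PPAN (77 nt), CIRBP (103 nt), ULK3 (181 nt), CDCA5 (209 nt) and FUZ (279 nt). Their U+ fractions were 44.8%, 97.0%, 33.0%, 92.6%, 45.5% and 77.5%, so high and low fractions occurred side by side and did not follow the length. The windows of PPAN and CDCA5 reached to within 4 nt of the intron end, while those of THOC6, CIRBP, ULK3 and FUZ ended 16, 39, 92 and 157 nt before it. Since window starts were read as counted from 1, which the sources used here do not state, each of these distances may be off by 1 nt. Such introns held 9.68% of the 62 windows and 9 of 1136 mRNA windows (0.792%), but the annotation that separates the classes also fixes most of this contrast. For lincRNA and antisense windows no comparison can be made, as 25 of 26 and all 48 met no coding transcript on their strand.

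**Figure D3:**
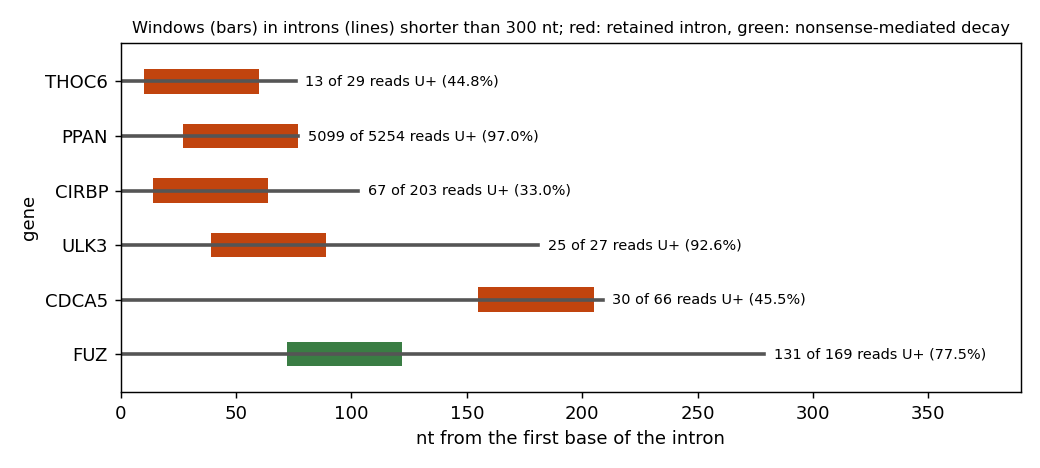
The 6 coding introns shorter than 300 nt that held a whole window, drawn to scale as lines from the first base of the intron (x axis, nt), with the 50-nt window as a bar for each gene (y axis) and its reads beside it. PPAN and CDCA5 windows lie at the end of their introns, and the fractions range from 33.0% for CIRBP to 97.0% for PPAN.

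Windows on mRNAs of the same genes gave a further point of reference. In 7 genes the table listed 8 windows of the mRNA class. The ADARB1 mRNA window had 31 of 42 reads U+, 73.8% (58.9 to 84.7%), beside 75.3% for the window of the set 750 nt away. TNPO1 had 262 of 473, 55.4% (50.9 to 59.8%), in the adjoining window, beside 57.1%. ULK3 had 149 of 167, 89.2% (83.6 to 93.1%), beside 92.6%, and LRRFIP1 had 161 of 205, 78.5% (72.4 to 83.6%), beside 83.1%. BUB1 had 19 of 27, 70.4% (51.5 to 84.1%), beside 72.0%. In each of these 5 genes the mRNA interval contained the fraction of the other window. The TNPO1 window of the set lies in a 5′ UTR exon of coding transcripts, so its reads cannot be assigned to the listed transcript rather than to an mRNA. Adjoining windows can also count the same read.

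GNAS and CIRBP differed. The GNAS mRNA window had 821 of 2162 reads U+, 38.0% (36.0 to 40.0%), below the 60.0% of the window of the set 2200 nt away. The latter window lies in a 5′ UTR exon of coding transcripts, so its reads cannot be assigned to the listed transcript rather than to an mRNA. CIRBP had 197 of 524, 37.6% (33.6 to 41.8%), in the mRNA window that adjoins the intron window at 33.0%, and 36 of 56, 64.3% (51.2 to 75.5%), in one 1650 nt upstream. The adjoining CIRBP windows had overlapping intervals, and the distant one lay above both. However, the window of the set ended 39 nt before the end of its coding intron. Thus 39 nt of the adjoining mRNA-class window lay in the same intron. The similar fractions of these adjoining windows therefore do not compare an intron with a spliced mRNA.

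The 62 windows were rich in G and C. Their median GC content was 74%, with the lowest value, 36%, in PHF10, beside 66% for lincRNA, 70% for antisense and 74% for mRNA windows. The median predicted folding energy of the 50 nt was −18.6 kcal/mol (quartiles −24.0 and −13.5), beside −15.5 for lincRNA, −17.8 for antisense and −18.8 for mRNA windows. The most stable fold was that of SYN2 with −35 kcal/mol and the least stable that of COL6A4P1 with −4.4 kcal/mol, while their U+ fractions were 86.6% and 98.9%. Across the 62 windows the Spearman correlation with the U+ fraction was 0.12 for GC content and 0.13 for folding energy. These are descriptions over windows that share the same libraries, and values this near 0 do not order the windows by either feature.

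An encoded run of T can be hard to tell from a tail, so the genome was searched for runs of at least 4 T in the window and in the 50 nt past it. Such a run was present for 10 windows (16.1%), beside 23.1% of lincRNA, 10.4% of antisense and 11.5% of mRNA windows. The 10 windows had a median U+ fraction of 60.7%, and the 52 without a run had 73.7%. ENGASE, the deeper EIF1 window, PHF10, CARS2, AC004540.5, CDCA5, THAP1, ARHGDIA, HIST2H2BA and DEGS1 made up the 10. PPAN, PRKCA, ADARB1, DMGDH and COL6A4P1 had no such run. Runs of at least 6 T were found in CDCA5, PHF10 and CARS2, with fractions of 45.5%, 59.6% and 51.9%. The CARS2 window with the 50 nt past it is printed as an example, with the T runs in capitals.

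CARS2, chr13:111364650-111364749, minus strand: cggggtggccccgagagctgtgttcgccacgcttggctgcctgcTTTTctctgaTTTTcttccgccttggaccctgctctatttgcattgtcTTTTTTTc

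Compared with the other long non-coding RNA classes, the 62 windows had a median a few percentage points higher, and pooled fractions that depended on a few genes. The median was 67.3% for 26 lincRNA windows (quartiles 45.1% and 72.5%) and 66.6% for 48 antisense windows (quartiles 56.1% and 77.1%), against 71.4%. The quartile ranges overlapped, and with no replicate counts the differences were not tested. The pooled fractions were 44.1% (42.6 to 45.5%) for lincRNA and 64.2% (62.9 to 65.4%) for antisense windows, against 73.5%. Each of these depended on a few genes. Without its 2 genes with the most unique reads, the pooled fraction was 68.9% (67.9 to 70%) for the set, which then lacked PPAN and PRKCA, 61.5% (59.4 to 63.5%) for lincRNA windows, which then lacked 6 windows with 53.4% of the reads, and 62.6% (61.2 to 64%) for antisense windows. The corresponding medians were 71.4%, 70% and 68%. At least 50% was reached by 17 of 26 lincRNA windows (65.4%) and 41 of 48 antisense windows (85.4%), beside 83.9% of the 62. The 62 windows made up 44% of the windows and 64.0% of the U+ reads of the long non-coding RNA class, and 4.04% of the windows and 1.54% of the U+ reads of the table.

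The lincRNA windows with the most U+ reads were LINC00657 (also called NORAD), a long RNA that binds Pumilio proteins, with 352 of 1023 reads U+, 34.4% (31.6 to 37.4%), and RP13-516M14.4 with 189 of 305, 62% (56.4 to 67.2%). The antisense windows with the most were A1BG-AS1 with 493 of 590, 83.6% (80.4 to 86.3%), and SNHG7, a snoRNA host gene, with 276 of 463, 59.6% (55.1 to 64.0%). Other windows of these classes had higher fractions. Among those with at least 50 unique reads the highest were, by a choice made after the values were seen, lincRNA NCBP2-AS2 with 169 of 185, 91.4% (86.4 to 94.6%), and an antisense window with 238 of 250, 95.2% (91.8 to 97.2%). The interval of the latter overlapped with that of PPAN.

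Depth and U+ fraction ran together differently in the classes. The Spearman correlation between unique reads and the U+ fraction was −0.13 over the 62 windows, −0.70 over the 26 lincRNA windows and −0.35 over the 48 antisense windows. The unique reads are also the denominator of the fraction and the windows share libraries, so these values are descriptions. Among windows with at least 100 unique reads the medians were 72.5% for 18 windows of the set, 45.8% for 14 lincRNA windows and 59.5% for 18 antisense windows. In the lincRNA class 2 genes, one of them LINC00657, gave 5 of the 14 deep windows. Without these 2 genes the median of the 9 deep lincRNA windows was 60.3% and the correlation over 20 lincRNA windows was −0.50. Without the 2 genes of most reads in each, the deep medians were 72.5% for 16 windows of the set and 59.5% for 15 antisense windows.

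**Figure D4:**
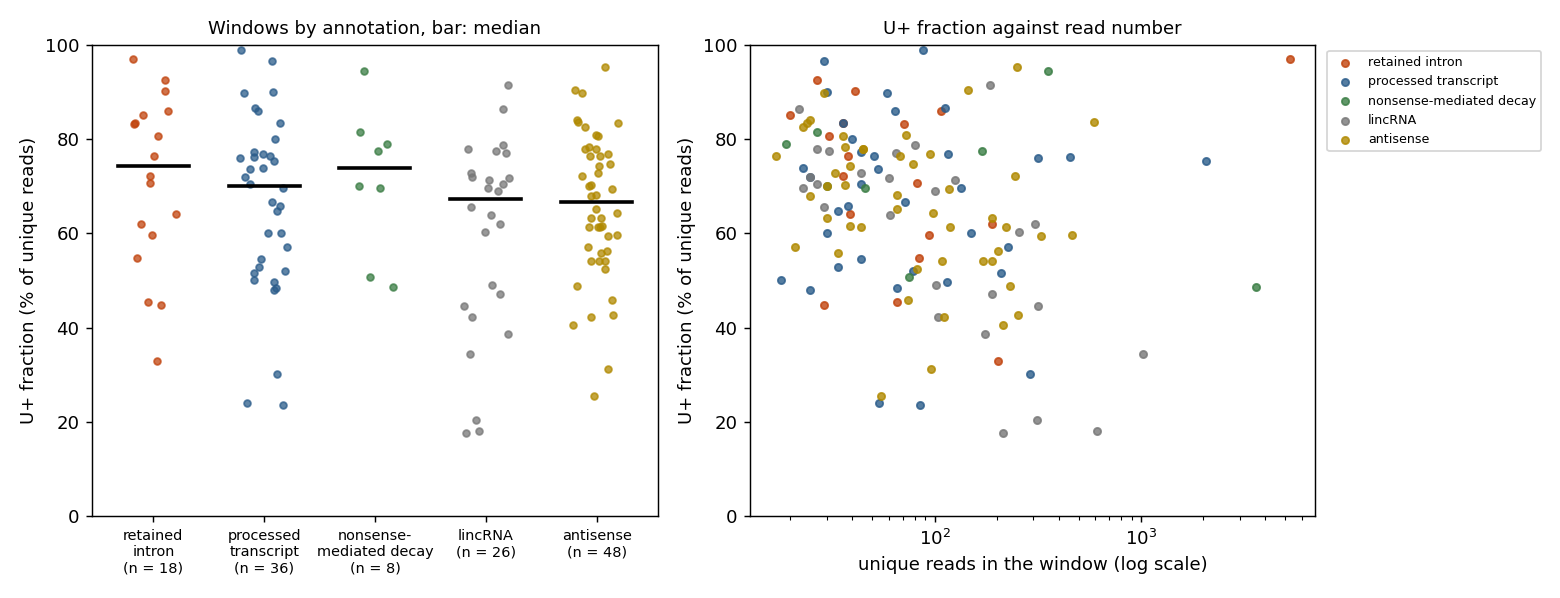
U+ fraction in percent (y axes) of the 3 transcript types and of lincRNA and antisense windows, by class with the median as a bar (left) and against the unique reads on a log scale (right); each point is 1 window of the summed counts. Medians lie between 66.6% and 74.3%, and the deepest lincRNA window, LINC00657 at 34.4%, lies below PPAN, ADARB1 and PRKCA.

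Antisense windows differed from the set in what lay behind them. The nearest coding start on the opposite strand lay within 1000 nt upstream for 38 of 48 antisense windows (79.2%) and 9 of 26 lincRNA windows (34.6%). This held for 7 of the 62 windows (11.3%). Only the nearest start in either direction was examined, so windows with a farther one upstream were not counted. The 7 counted were DMGDH, ADAP2, CARS2, TP53TG1, ANKRD13B, CDCA5 and CTD-2260A17.2. The DMGDH window, 229.5 nt from such a start, met no coding transcript on its own strand. In the set, the 24 exonic and 24 intronic windows given above lay on the strand of a coding gene. Position relative to an opposite gene is part of what defines an antisense RNA in the annotation, so this contrast was in part given by the class.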

How the data were processed

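Segemehl was used by the authors to map CLIP reads to the hg19 build, in a second round after removal of terminal T from unmapped reads. Fragments had been cut with RNase T1, which cleaves after G. Per the labels, Subread was also among the tools. They counted unique and uridylated reads in windows of 50 nt, kept windows by a minimum of 20 reads and by a posterior, and gave each window 1 annotation, tRNA first and long non-coding RNA last. This favours tailed windows and drops reads with several matches. The deposited values are raw counts summed over 3 libraries, and 0 columns of other samples were present. Replicates were not said to be separate cultures.

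U+ fractions have 95% Wilson intervals (scipy 1.17.1). Positions came from GENCODE release 44 mapped to hg19, distances run from window midpoints, folds from RNAfold 2.7.2, and copies (at least 45 nt, at most 2 differences) from blastn 2.17.0. Intervals and medians were tested on simulated data. The members, role groups and lists were chosen with earlier results of these data known. Named in full were, per transcript type, the 3 windows with the most U+ reads and the 2 highest and 2 lowest fractions at 50 or more unique reads, genes with several windows, non-coding loci and windows at the edge of the filter. Values without the 2 deepest genes of a class, and 1 window per gene for lincRNA and antisense windows, were added after seeing the data. No test between classes was made. One window counted in the summaries is not reported singly here. Windows on chromosome 8 and UTR windows have no printed sequence.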

Additional observations from a re-analysis of the deposited data

How the results depend on the processing

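Among the alternative values, 33 stayed close to the value given, within its interval or, for counts, within a fixed ratio, and 8 did not. The intervals of medians used for this were not Wilson intervals and treat windows as units. For nonsense-mediated decay windows the interval ran from 48.6% to 94.4%, the full range of the 8 windows, so no alternative median could leave it. Some alternatives also kept the same windows and could not change the value. The number that stayed close is therefore no measure of robustness. The pooled U+ fraction of the set was 74.5% with at least 100 unique reads per window, 62.2% without PPAN and 68.9% without PPAN and PRKCA. With at least 100 unique reads the median of lincRNA windows was 45.8% and that of antisense windows 59.5%. With 1 window per gene these medians were 69.3% and 68.1%, and without the 2 genes of most reads 70% and 68%. An exon of the listed transcript held 54 windows, and an exon of a protein-coding transcript 24. Encoded runs of at least 6 T were found for 3 windows instead of 10, and the median folding energy was −45.9 kcal/mol with 25 nt added on each side, as a longer sequence gives. The median of the set lay between 70.7% and 73.9% under its alternatives, 3 of which (near a start, no T run, no copy) were chosen after seeing the data. No paired analysis was possible because the counts were summed over the 3 libraries, and for the same reason no library could be left out. Most windows have under 100 reads, which limits how far single fractions can be told apart.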
